A study of Mus musculus with 12 samples.

Results

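Chromatin accessibility was compared between the 6 libraries of fibroblasts given estrogen and the 6 libraries not given it. The members are 12 of the 12 ATAC-seq libraries of the series. They were chosen by the treatment label, so that estradiol (E2, 10 nM) and E2 (10 nM) with fulvestrant (100 nM) stood on one side, and vehicle (ethanol and DMSO) and fulvestrant alone (100 nM) on the other, with 3 libraries for each treatment. Every library held primary fibroblasts grown from lower abdominal muscle, and the mice were all Arom hum, a line with a human aromatase gene, so each one, controls included, came from animals that make estrogen from androgen. Treatment lasted 1 hour in every group and, per the methods of the study, followed a 3 hour pretreatment with fulvestrant or DMSO in serum-free medium without phenol red. The estrogen side therefore included 3 libraries that also received an antagonist of the estrogen receptor, and the comparison asks what the presence of the hormone did whatever the state of the receptor. The labels do not say whether replicates came from separate animals or cultures, so p-values measure the spread between these libraries, which may be technical.

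Estrogen receptor alpha, encoded by Esr1, is a nuclear receptor that binds E2, moves onto DNA at the estrogen response element (ERE) and recruits coactivators that open chromatin and start transcription. Fulvestrant competes with E2 for the receptor and leads to its degradation. ATAC-seq uses a transposase that cuts accessible DNA, so a peak in a list marks a place where cuts were piled up above the local background. In lower abdominal muscle the receptor is known from fibroblasts, where estrogen has been tied to matrix deposition and hernia.

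Each library is represented by its own peak list, and 647907 peaks on chromosomes 1 to 19 and X entered the comparison. The lists held 28792 to 109449 peaks, and their genome-wide background, a measure of relative depth, ran from 0.713 to 1.42 tags per window. In peaks on chromosome Y the replicates numbered 1 stood apart in every treatment, with 22 to 36 against 854 to 1148 in the other 8 libraries. Values within number 1 and within numbers 2 and 3 are therefore given beside the values per library. Vehicle replicate 3, with 936 peaks on chromosome Y, had a list closer to those of number 1, as given below under the similarity of lists. Promoter peaks (summit within 3000 bp of a start site) were listed for Vim in 10 libraries, Col1a1 in 9 and Pdgfra in 7, all fibroblast genes. Col3a1, another fibroblast gene, had one in 3 libraries with estrogen and 1 without. Over the 12 fibroblast genes the mean was 2.92 of 6 libraries with estrogen and 3.33 of 6 without. It was 2.09 and 2.69 over all protein-coding genes, 1.75 and 1.625 over 8 myogenic genes and 1.5 and 1.5 over 4 adipocyte genes. Myod1 and Pax7, which define muscle precursors, had none in any list, nor had Adipoq of adipocytes. The muscle genes Des and Ckm had one in 6 and 8 lists, the adipocyte gene Plin1 in 10, and Fabp4 and Pparg in 1 each. In a bulk culture, a lower share of cells with an open site and less opening in each cell cannot be told apart.

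Peaks of all 12 lists were merged into 431930 regions, and the number of libraries that listed a region on each side was the main readout. The sequences below are examples picked after the lists had been seen, taken from mm10 on the plus strand, with motif matches in capitals. No region passed the test of calling libraries after adjustment. Of the 3 regions listed in 0 libraries with estrogen and 6 without, only the first below consists mostly of words of sequence that occur once in the genome. The first window lay in the region near A230072I06Rik at chr8:12187399-12187599, which was listed in 0 of 6 libraries given estrogen and 6 of 6 without it. It is a run of short TG-rich repeats, soft-masked as a repeat over its whole length, and the capitals mark the HIF1A element (ACGTG or GCGTG).
A230072I06Rik: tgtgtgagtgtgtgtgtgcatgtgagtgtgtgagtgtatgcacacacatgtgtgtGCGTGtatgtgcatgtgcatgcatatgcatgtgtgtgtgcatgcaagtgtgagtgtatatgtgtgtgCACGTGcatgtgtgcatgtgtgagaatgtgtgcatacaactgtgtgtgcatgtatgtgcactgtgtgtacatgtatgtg

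Several of the regions that leaned toward estrogen hold only words of sequence that occur once in the genome. Shown are those in an intron of Exoc2 with Irf4 as the nearest start site (chr13:30822063-30822263) and in the promoter of Dcaf4 (chr12:83527532-83527732). Neither holds an ERE. Capitals mark a PLAG1 element near Irf4 and an AP-1 element (TGACTCA or TGAGTCA) and a HIF1A element near Dcaf4.
Irf4: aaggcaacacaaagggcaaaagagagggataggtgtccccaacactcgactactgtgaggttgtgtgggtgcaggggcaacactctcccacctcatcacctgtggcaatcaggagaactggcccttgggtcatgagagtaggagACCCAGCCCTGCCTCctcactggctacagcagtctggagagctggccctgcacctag
Dcaf4: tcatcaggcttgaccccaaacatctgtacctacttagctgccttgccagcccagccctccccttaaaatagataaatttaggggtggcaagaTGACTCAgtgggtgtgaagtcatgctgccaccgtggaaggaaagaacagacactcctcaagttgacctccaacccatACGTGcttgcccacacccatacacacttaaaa

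The last windows are 3 of the 12 in 3 or more lists with a full ERE, GGTCA and TGACC separated by any 3 bases, which is the sequence estrogen receptor alpha binds. Those nearest to Nmnat2 (chr1:153092002-153092202), Lpar1 (chr4:58563467-58563667) and Tgfbr2 (chr9:116242275-116242475) are shown as examples of what an ERE in these lists looks like, picked after their values had been seen. Others in 4 or more lists were nearest to Fbxl13 and Cgnl1 (2 libraries with estrogen and 2 without), Pgrmc2 and Rybp (2 and 3) and Med13l (2 and 4). Capitals mark the ERE and, near Lpar1, the HIF1A element as well.
Nmnat2: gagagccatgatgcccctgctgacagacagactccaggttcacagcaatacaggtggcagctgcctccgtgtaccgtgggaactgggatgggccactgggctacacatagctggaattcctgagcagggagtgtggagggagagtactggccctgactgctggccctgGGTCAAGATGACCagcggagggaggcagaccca
Lpar1: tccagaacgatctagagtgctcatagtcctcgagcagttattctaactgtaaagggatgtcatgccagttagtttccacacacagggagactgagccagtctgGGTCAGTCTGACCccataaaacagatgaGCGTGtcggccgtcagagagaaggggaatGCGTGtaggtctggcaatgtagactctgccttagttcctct
Tgfbr2: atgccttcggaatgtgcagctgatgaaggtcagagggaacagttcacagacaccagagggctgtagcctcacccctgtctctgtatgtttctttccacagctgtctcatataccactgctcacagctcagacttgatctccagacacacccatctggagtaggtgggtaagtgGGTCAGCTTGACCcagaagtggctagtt

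The number of peaks did not differ beyond the spread between libraries. With estrogen the lists held 78564, 47408 and 30505 peaks after E2 and 60703, 35121 and 32507 after E2 with fulvestrant. Without estrogen they held 77163, 109449 and 43253 peaks after vehicle and 73561, 30881 and 28792 after fulvestrant. The sides overlap over nearly their whole range. On the log2 scale the mean was 15.44 ± 0.55 (SD, n = 6) with estrogen and 15.71 ± 0.78 (SD, n = 6) without it, a difference of −0.27 (exact two-sided permutation test over 924 labelings, p = 0.5). The difference was −0.56 for E2 against vehicle and 0.03 for E2 with fulvestrant against fulvestrant. It was −0.13 in number 1 and −0.34 in numbers 2 and 3.

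Among the stronger peaks, those with q of 0.05 or less, the libraries numbered 2 and 3 separated by estrogen and those numbered 1 did not. After E2 numbers 2 and 3 held 3420 and 2483 such peaks and after E2 with fulvestrant 2216 and 2188. After vehicle they held 17397 and 19950, and after fulvestrant 7324 and 4247. All 4 lists with estrogen were thus below all 4 without it, by 2.01 on the log2 scale (exact two-sided permutation test, n = 4 against 4, p = 0.0286, the smallest that 4 against 4 allows), and a difference of this kind between strata was noticed after the lists had been seen. In number 1 the values were 30443 after E2, 24882 after E2 with fulvestrant, 13757 after vehicle and 30331 after fulvestrant, a difference of 0.43 in the other direction. Over all 12 libraries the difference was −1.20 (exact permutation p = 0.18). Vehicle replicate 3, whose list was closest to those of number 1, stood among the 4 without estrogen in numbers 2 and 3. Without it the difference there was −1.69 (exact permutation p = 0.0286). The background of the 4 lists with estrogen was 0.979 to 1.14 tags per window and that of the 4 without it 0.799 to 1.42, and the part of depth and library quality in the result was not tested.

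**Figure D1:**
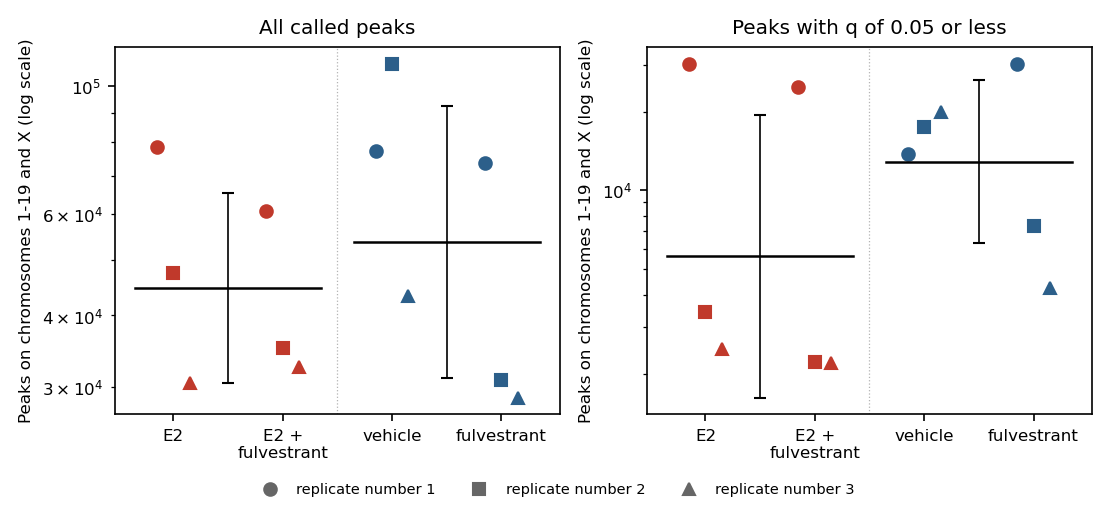
Peaks per library, all listed peaks and those with q of 0.05 or less, on a log axis, by treatment and replicate number. Among the stronger peaks, numbers 2 and 3 lie at 2188 to 3420 with estrogen and at 4247 to 19950 without it, while number 1 lies at 24882 and 30443 with estrogen and at 13757 and 30331 without it.

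Few regions were listed mostly on one side. Of the 431930 regions, 336761 were in a single list, 18689 in 5 or more and 669 in all 12. The 18689 were the regions tested, and a difference of 5 or more of 6 libraries could arise in the 15471 of them called in 5 to 7 lists. A total of 36 regions differed by 5 or 6 libraries, 10 toward estrogen (0.0535% of the 18689) and 26 away from it (0.139%). Over all 924 labelings of the libraries these counts gave exact permutation p = 0.935 for the total, 0.865 for the regions toward estrogen and 0.463 for those away from it. Within replicate number and fulvestrant level, where 64 labelings are possible, p was 0.9375, 0.875 and 0.39 (exact permutation tests). A single region reaches an unadjusted p of 0.00216 at best (exact permutation test, n = 6 against 6), and after Benjamini-Hochberg adjustment over the 18689 all were at 1. For any region to pass at 0.05, 810 regions would have to stand at that smallest p, and 4 did. Just outside the threshold, a difference of 4 libraries was found in 122 regions toward estrogen and 320 away from it.

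**Figure D2:**
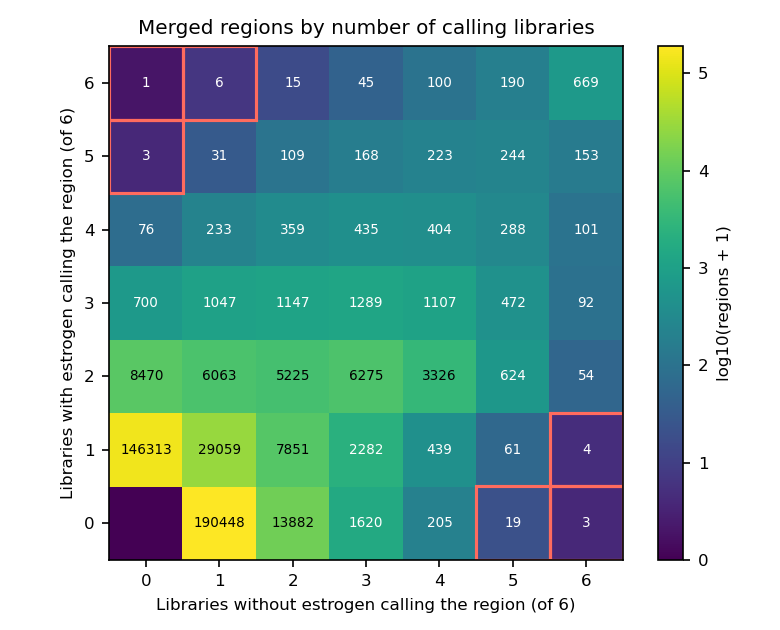
Number of regions by the count of libraries that listed them, out of 6 with estrogen on one axis and out of 6 without on the other. The corners hold 1 region listed in 6 and 0 libraries and 3 listed in 0 and 6, against 669 listed in all 12.

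The region listed in all 6 libraries given estrogen and in none of the others lay at chr1:110177033-110177644, between genes and 77956 bp from a start site of Cdh7, a cadherin of cell adhesion. Its fold enrichment was 2.66, 4.67 and 4.04 in the E2 libraries and 2.85, 3.31 and 3.46 in the libraries given both. All were weak peaks, with −log10 q from 0.255 to 2.38. The median 31-base word of its summit window occurs 24 times in the assembly, so reads there can come from other copies.

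The counterpart without estrogen was 3 regions. One lay in an intron of Gria4, a subunit of AMPA-type glutamate receptors, at chr9:4771400-4772011, with fold enrichments of 4.79, 4.45 and 3.47 after vehicle and 3.61, 4.10 and 4.13 after fulvestrant. Another lay 234837 bp from Acvr2a, a receptor for activin, at chr2:48578987-48579793, with 2.92, 3.34 and 2.97 after vehicle and 3.16, 3.59 and 2.89 after fulvestrant. The region near A230072I06Rik, a gene with no assigned role, lay at chr8:12187156-12187814 with 3.5, 5.24 and 2.80 after vehicle and 3.36, 3.07 and 3.31 after fulvestrant. None of the libraries given estrogen listed any of these 3. The windows near Gria4 and Acvr2a are high-copy, with median word copies of 2262 and 2946, and share 68 of their 171 words, so they are not independent of each other.

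The other regions toward estrogen were called in 6 against 1 or 5 against 0 libraries. Near Irf4, a transcription factor of immune cells, the region in the Exoc2 intron had fold enrichments of 2.66, 4.2 and 3.5 after E2, 2.85, 3.31 and 2.94 after E2 with fulvestrant, and 2.92 in vehicle replicate 1. At the promoter of Dcaf4, a substrate receptor of a ubiquitin ligase, the values were 3.11, 3.27 and 2.65 after E2 and 3.33 and 2.73 in numbers 1 and 3 after both agents. These are the windows printed above, and no other library listed the region at Dcaf4. A further 6 had their nearest start site at Gm31371, Zfp981, Speer2, Pmp22, Uqcrb and Rin2, each in sequence of which 52.0% to 100% of the words are repeated. Those of Speer2, Pmp22 and Uqcrb were far off, at 696458, 201950 and 204507 bp.

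On the other side, the region 293633 bp from Has2, a synthase of the matrix glycan hyaluronan, was listed in 1 library with estrogen and 6 without, and its median word has 13587 copies. Those nearest to Cers3, a ceramide synthase, Tmem132c, Gm6793, Tpd52 and Galr1, the galanin receptor, were listed in 0 and 5 libraries, the first with a strong peak in vehicle replicate 2 (fold enrichment 9.47, −log10 q 12.5), and that near Ywhaq, a 14-3-3 protein, in 1 and 6. These complete the 10 with the largest difference.

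**Figure D3:**
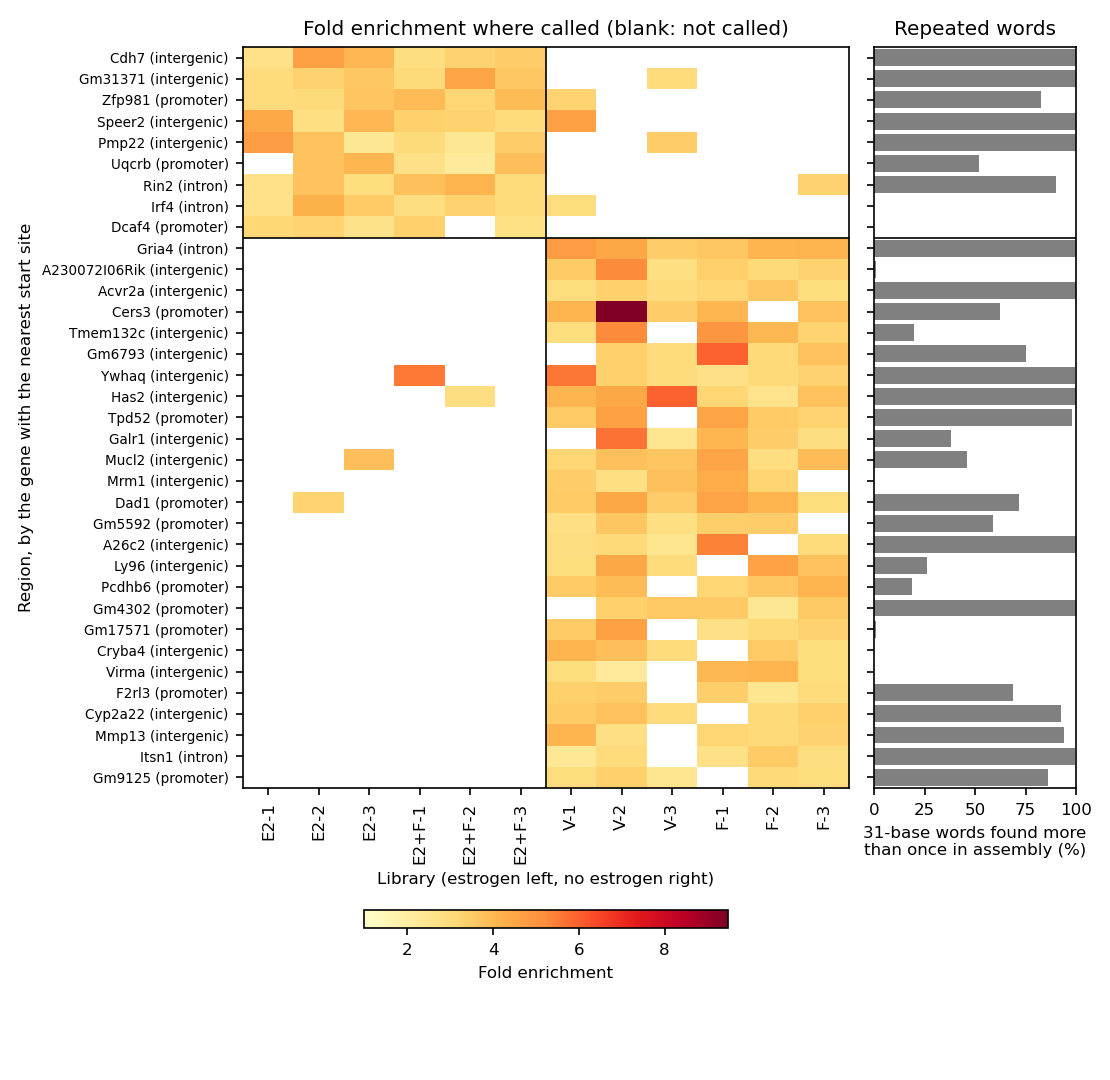
Fold enrichment in each of the 12 libraries for regions that leaned by 5 or 6 libraries, 9 toward estrogen above the line and 26 away from it below, blank where a library listed no peak, with bars for the percent of 31-base words found more than once in the assembly. Values of the Cdh7 region run from 2.66 to 4.67, and the highest of any is 9.47 near Cers3 in vehicle replicate 2.

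Regions that leaned in either direction held weaker and more repetitive peaks than all regions in 5 or more lists, a description with no test. The median of their mean −log10 q was 0.874 toward estrogen and 1.29 away from it, against 3.01 for all 18689 and 3.27 for those in 5 to 7 lists. A total of 0 of the 36 had q of 0.05 or less in every calling library, against 4217 of the 18689. Promoters made up 3 of 10 and 9 of 26, against 50.7% of all and 54.3% of those in 5 to 7. Words found more than once in the genome filled at least 50% of the summit window in 7 of 10 regions toward estrogen and 16 of 26 away from it, against 29.0% of all. No ERE was found in the 36, and 5 of the 18689 hold one. Without the regions filled by repeated words, 13 were left, 3 toward estrogen and 10 away, with exact permutation p = 0.931, 0.846 and 0.495 for the total and the 2 directions. Limiting the lists to peaks with q of 0.05 or less gave 11 regions, 1 toward estrogen in an intron of Dapk1, a death-associated kinase (chr13:60676204-60676776), and 10 away, among them an intronic region 12763 bp from the start site of Ptx3, a secreted pattern recognition protein, and a region 37700 bp from Vim (exact permutation p = 0.383 for the total).

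Shared regions were listed less often with estrogen, though within the spread between libraries. Of the 27524 regions in 4 or more lists, 4188 were called by more libraries with estrogen, 15505 by more libraries without it and 7831 by as many. A library given estrogen listed 41.0% ± 28.6 of them and one without it 51.9% ± 20.6 (SD, n = 6 each, exact permutation p = 0.4). After E2 the shares were 80.7%, 25.9% and 22.7% and after both agents 74.8%, 19.7% and 22.1%. After vehicle they were 65.2%, 40.4% and 65.2%, and after fulvestrant 78.6%, 35.2% and 26.6%. Within numbers 2 and 3 every value with estrogen was below every value without it (difference −19.3 percentage points, exact permutation p = 0.0286, the smallest possible), and within number 1 the difference was 5.84 points in the other direction. Vehicle replicate 3, with a list close to those of number 1, had the highest value without estrogen in numbers 2 and 3 (65.2%). The shared regions were defined over all 12 lists. With shared regions taken from the lists of numbers 2 and 3 alone, the mean difference in calling libraries was −0.29 (exact permutation p = 0.229). Counts over gene lists below are therefore set beside the same count over all genes.

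Promoter calls leaned the same way, also within the spread. A library given estrogen had a promoter peak at 34.9% ± 21.1 of the 21728 protein-coding genes and one without it at 44.9% ± 17.1 (SD, n = 6 each, exact permutation p = 0.396). The difference was 1.24 percentage points in number 1 and −15.6 in numbers 2 and 3 (exact permutation p = 0.114), where the sides overlapped, with 25.5% in E2 replicate 2 and 19.5% in fulvestrant replicate 3. In all, 17.6% of the genes had a promoter peak in more libraries with estrogen and 51.5% in fewer. The share of all peaks that lay in promoters was 25.2% ± 5.18 with estrogen and 28.3% ± 6.16 without it (exact permutation p = 0.355), with differences of 2.36 points in number 1 and −5.79 in numbers 2 and 3. Shares in exons, introns and intergenic sequence gave exact permutation p = 0.128, 0.387 and 0.439.

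The listed estrogen target genes stood near that background. Of 20, 3 had a promoter peak in more libraries with estrogen, 10 in fewer and 7 in as many. Greb1, a coactivator of the receptor and one of its best known targets, was listed in 4 libraries with estrogen and 3 without, and Pgr, the progesterone receptor, in 2 and 2. Esr1 itself was listed in 4 and 3, all of them numbers 2 and 3. Ccn5, a matricellular protein also called Wisp2, was listed in 2 and 0. Xbp1, a factor of the unfolded protein response, stood at 3 and 6, and the cell cycle genes Ccnd1 and Myc at 2 and 4 each. No gene of this list passed an unadjusted p of 0.05 in the gene test below.

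Early response genes, most of which encode transcription factors, are switched on within minutes of a stimulus. Of the 19 listed, 0 had a promoter peak in more libraries with estrogen and 16 in fewer. That is 84.2%, against 51.5% of all genes and 62.4% of the 13770 genes with a promoter peak in 4 or more libraries. Fosb stood at 2 libraries with estrogen and 6 without, Atf3 at 3 and 6, and Fosl1 and Ier2 at 2 and 5. Jun and Egr1 were at 5 and 5. In numbers 2 and 3 alone, Fosb was listed in 0 of 4 with estrogen and 4 of 4 without it. Atf3 was at 1 and 4 there. The 4 without estrogen include vehicle replicate 3, with a list close to those of number 1. No test was made of the list.

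Among receptors and coregulators, 3 of 20 were listed in more libraries with estrogen (15%) and 11 in fewer (55%). Over all genes these shares were 17.6% and 51.5%. Esr2, the beta form of the receptor, and Ep300, a histone acetyltransferase, were each at 3 and 6, and the corepressor gene Ncor1 was at 2 and 5. Nr3c1, the glucocorticoid receptor, was at 5 and 4. Of 30 matrix and TGF-beta genes, 6 were listed in more (20%) and 16 in fewer (53.3%). Col3a1, a fibrillar collagen, was at 3 and 1, Ltbp1, which holds latent TGF-beta in the matrix, at 5 and 4, and Acta2, the smooth muscle actin of myofibroblasts, at 0 and 3. Of 25 Wnt and Hedgehog genes, 4 were in more (16%) and 14 in fewer (56%). Smo, the Hedgehog signal transducer, was at 4 and 3 and Sfrp1, a secreted Wnt inhibitor, at 2 and 0. Of the 3 PLAG genes, Plag1 stood at 4 and 5 and the others were even.

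The study chose 2 further sets of genes from RNA-seq, ChIP-seq and these ATAC-seq samples together, so their direction is not independent evidence. Both sets came from E2 against E2 plus fulvestrant. These treatments both stand on the estrogen side here, so the counts do not test the direction the study gave. Only a part of the E2 set was used here. Of 15 of the genes the study tied to E2, 3 were listed in more libraries with estrogen and 7 in fewer (46.7%). Gpr85, an orphan receptor, was at 2 and 0, Tnik, a kinase of Wnt signaling, at 5 and 5, and Cxxc5 at 2 and 5. Of the 34 genes the study tied to E2 with fulvestrant, 2 were in more and 24 in fewer (70.6%). The share in fewer was 51.5% of all genes and 62.4% of the 13770 genes with a promoter peak in 4 or more libraries. No test was made of either set. Fkbp5, a chaperone of steroid receptors, was listed in all 12 libraries, and Nav3, a regulator of microtubules, in 1 and 5.

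Markers of other cell types are given beside these counts. Of 12 fibroblast genes, 3 were listed in more libraries with estrogen and 7 in fewer, of 8 myogenic genes 1 and 1, of 6 endothelial genes 0 and 4, of 6 immune genes 2 and 4, of 4 adipocyte genes 1 and 1, and of 6 epithelial genes 2 and 3. Over all protein-coding genes, 17.6% were listed in more and 51.5% in fewer. The part of these markers in the result was not tested.

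**Figure D4:**
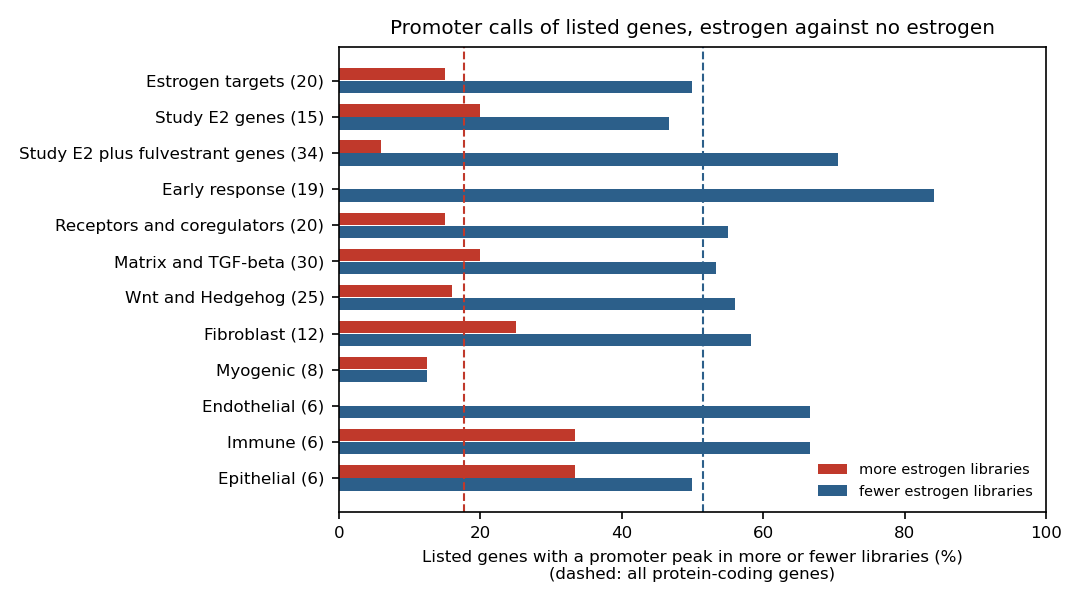
Share of each gene list with a promoter peak in more libraries with estrogen and in fewer, with dashed lines at the values for all protein-coding genes. The early response list stands at 0% and 84.2%, against 17.6% and 51.5% of all genes.

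Single promoters with a difference of 5 or 6 libraries were few, 3 toward estrogen (exact permutation p = 0.870) and 14 away from it (p = 0.321, same permutation test). They were chosen after their values had been seen. Cldn15, a tight junction protein, was listed in 6 libraries with estrogen and 1 without. The potassium channel genes Kcnj14 and Kcnk5 were listed in 5 and 0. At Kcnj14 the fold enrichment was 3.42, 2.80 and 2.83 after E2 and 3.13 and 2.87 in numbers 2 and 3 after both agents. Cnn1, the calponin of smooth muscle and of activated fibroblasts, was listed in 0 and 6. Its values were 2.60, 2.78 and 3.47 after vehicle and 3.20, 3.33 and 2.78 after fulvestrant. Of its 7 peaks, 0 had q of 0.05 or less and the summits spanned 8302 bp, so they did not mark one site. The same holds for Cldn15 and Kcnk5, with spans of 9080 bp and 38807 bp.

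The number of peaks assigned to each gene, per 10000 peaks of a library, gave no gene past the threshold. Of 13028 genes tested, 0 passed after Benjamini-Hochberg adjustment over all of them (exact permutation test, every adjusted p at 1), and 534 had an unadjusted p of 0.05 or less, 257 higher with estrogen (1.97%) and 277 lower (2.13%). That is 4.10% of the genes tested. The smallest p the design allows, 0.00216, was reached by 18 genes, and 564 would be needed for any to pass. Values below are peaks per 10000.

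Among genes with more peaks given estrogen, Tiam2, which activates the GTPase Rac, stood at 2.16, 2.11 and 2.95 after E2 and 2.97, 2.56 and 2.77 after both agents. Without estrogen it stood at 1.56, 1.92 and 2.08 after vehicle and 0.95, 0.97 and 2.08 after fulvestrant. The sides did not overlap, with means of 2.59 ± 0.38 and 1.59 ± 0.53 (SD, n = 6 each, exact permutation p = 0.00216). The plain numbers of peaks were 9 to 18 with estrogen and 3 to 21 without it, which do overlap.

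Grip2, a scaffold of glutamate receptors, stood at 0.89, 0.84 and 0.98 after E2 and 0.99, 1.14 and 1.54 after both. Without estrogen it was at 0.39, 0.27 and 0.23 after vehicle and 0.41, 0 and 0.35 after fulvestrant (means 1.06 ± 0.25 and 0.28 ± 0.15, SD, n = 6 each, exact permutation p = 0.00216). These values rest on 3 to 7 peaks a library with estrogen and 0 to 3 without it. Myrip, a linker of Rab proteins to myosin, had the largest difference of the 10, with 3.15 ± 0.84 and 1.49 ± 0.28 (SD, n = 6 each, exact permutation p = 0.00433). It was higher with estrogen in 5 of 6 same-numbered pairs. Megf11, Ntng2 (netrin-G2), Gm21103, Wipi2 of autophagy, Tubgcp2 of the gamma-tubulin complex, Polr3b of RNA polymerase III and Blcap complete the 10, at differences of 0.37 to 0.95. All 10 were higher with estrogen both in number 1 and in numbers 2 and 3. At the smallest p every library of one side stands above every library of the other. For all but Myrip that agreement was therefore fixed by the choice of genes.

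Among genes with fewer peaks given estrogen, Ppp2r2b, a regulatory subunit of protein phosphatase 2A, stood at 1.15, 1.05 and 0.98 after E2 and 1.15, 0.85 and 1.23 after both, against 1.56, 1.74 and 1.85 after vehicle and 1.36, 1.62 and 2.43 after fulvestrant. Ibtk, an inhibitor of Bruton's tyrosine kinase, was at 0.38, 0.42 and 0.33 after E2 and 0.16, 0.28 and 0.62 after both, and at 1.17, 1.19 and 0.69 after vehicle and 0.82, 0.97 and 1.04 after fulvestrant. The sides did not overlap for either gene (exact permutation p = 0.00216 each, n = 6 against 6). Ltf, which encodes lactoferrin, a protein that estrogen is known to raise in the mouse uterus, was at 0.18 ± 0.14 with estrogen and 0.40 ± 0.06 without it (SD, n = 6 each, exact permutation p = 0.00216), from 0 to 2 and 1 to 5 peaks a library. Lmbr1, Zfp957, Wdr19 of intraflagellar transport, Afg3l1, Dzip1l, the ribosomal protein gene Rps3 and Gabrg1, a subunit of GABA-A receptors, complete the 10. All 10 were lower in both strata, which for all but Gabrg1 was likewise fixed by their choice at the smallest p.

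**Figure D5:**
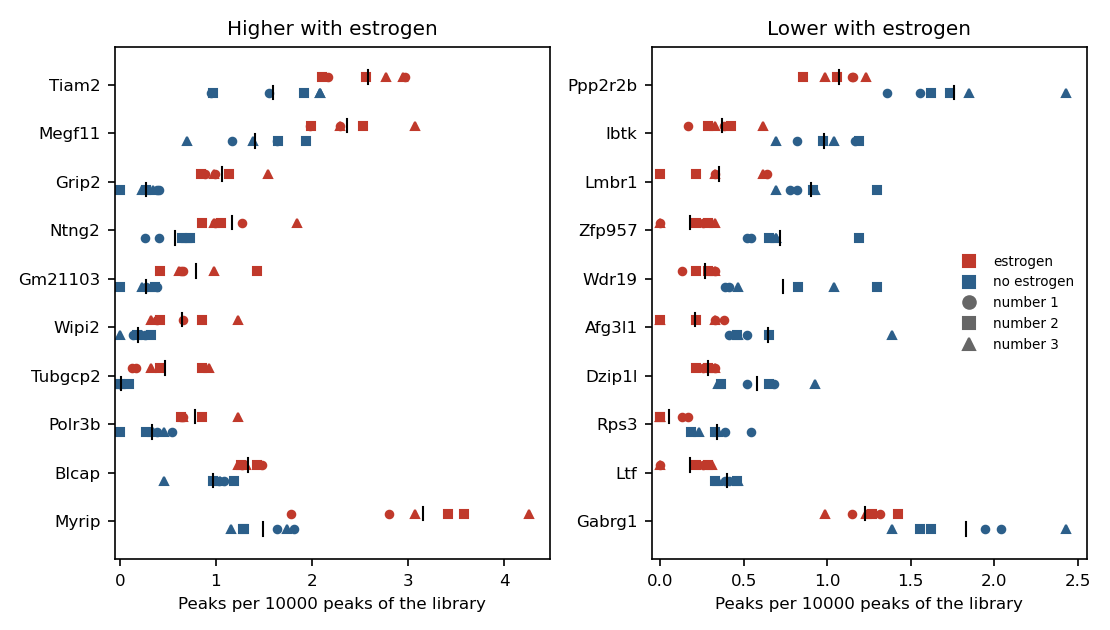
Peaks per 10000 peaks of the library for the 10 genes in each direction with the smallest p, one point a library, by estrogen. Points of the sides do not overlap for Tiam2, Grip2, Ppp2r2b or Ibtk, yet 0 of 13028 genes passed after adjustment.

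Of the listed genes, 3 had an unadjusted p of 0.05 or less and 0 an adjusted one, beside 4.10% unadjusted over all genes tested. They were 1 of 17 early response, 1 of 24 Wnt and Hedgehog and 1 of 3 epithelial genes tested. No other list held any, among them 0 of 19 estrogen targets, 0 of 34 genes tied to E2 with fulvestrant and 0 of 27 matrix and TGF-beta genes. Egr3, an early growth response factor, stood at 1.38 ± 0.62 with estrogen and 0.62 ± 0.37 without it (SD, n = 6 each, exact permutation p = 0.0173). It was the only member of 17 tested early response genes at that level, and was higher in 6 of 6 same-numbered pairs, though its promoter was listed in 3 and 3 libraries. The difference was 0.13 in number 1 and 1.07 in numbers 2 and 3. Wnt9a, a Wnt ligand, stood at 0.06 ± 0.09 and 0.29 ± 0.23 (exact permutation p = 0.0325), and the third was the epithelial marker Krt8, lower with estrogen. Esr1 was at 2.41 ± 1.00 and 1.57 ± 0.91 (SD, n = 6 each, exact permutation p = 0.119). Greb1 was at 1.17 ± 0.60 and 1.21 ± 0.40, and Pgr at 0.57 ± 0.27 and 0.57 ± 0.31. In each list the median difference lay between −0.14 and 0.12, beside −0.00122 over all genes tested.

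Distal peaks, over 3000 bp from a start site, were searched on both strands for binding elements within 100 bp of the summit. A full ERE was in 26, 4 and 6 of them after E2 and in 21, 6 and 10 after E2 with fulvestrant. After vehicle it was in 10, 18 and 10, and after fulvestrant in 16, 1 and 3. As a share that was 0.0328% ± 0.0161 with estrogen and 0.0209% ± 0.0118 without it (SD, n = 6 each, exact permutation p = 0.173, adjusted over 6 elements p = 0.616). The highest shares, 0.0467% and 0.0521%, were those of number 1, and the difference was 0.0248 percentage points there and 0.00553 in numbers 2 and 3. Among libraries with fulvestrant the difference was 0.0216, and without it 0.00230. Such matches are a description of the sequence, not sites of binding.

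Among distal regions in 2 or more lists, 20 of 66984 (0.0299%) hold an ERE. Of these, 9 (45%) were called by more libraries with estrogen and 5 by fewer, beside 21.9% called by more of all 66984. In 4 or more lists it was 7 of 15112, of which 1 (14.3%) was called by more and 3 by fewer, beside 21.4% of all. E2 replicate 1 listed every ERE region found in 3 or more lists, and E2 plus fulvestrant replicate 1 all but that near Soga1. Without estrogen, fulvestrant replicate 1 listed all but those near Tprg and Soga1. The window near Nmnat2, an enzyme of NAD synthesis, and that near Lpar1, a receptor for lysophosphatidic acid, were each in 3 libraries with estrogen and 2 without. The window 67015 bp from a start site of Tgfbr2, a TGF-beta receptor, was in 2 and 2. An ERE region 62671 bp from a start site of Med13l, a subunit of Mediator, was in 2 and 4.

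Over all 12 libraries the other elements also differed by less than the spread. HIF1A was in 20.8% ± 0.6 of distal peaks with estrogen and 21.2% ± 0.784 without it (SD, n = 6 each, exact permutation p = 0.413, adjusted 0.616). In numbers 2 and 3 all 4 values with estrogen, 19.6% to 20.9%, lay below all 4 without it, 21.1% to 21.8% (difference −0.98 points, exact permutation p = 0.0286, the smallest possible), and in number 1 the difference was 0.91 in the other direction. AP-1 was in 3.89% ± 1.05 of distal peaks with estrogen and 4.68% ± 2.06 without it (SD, n = 6 each, exact permutation p = 0.513, adjusted 0.616), with differences of 0.34 points in number 1 and −1.35 in numbers 2 and 3. In numbers 2 and 3 the AP-1 share was 8.51% in vehicle replicate 3. It was 3.21% in vehicle replicate 2 and 3.65% and 2.97% in fulvestrant replicates 2 and 3. With estrogen it was 3.004% to 3.42% there, so without vehicle replicate 3 the sides overlapped. Of the 982 AP-1 regions in 4 or more lists, which are 6.5% of such distal regions, 94 were called by more libraries with estrogen (9.57%) and 599 by fewer, beside 21.4% called by more of all distal regions. For CTCF, the architectural factor at domain boundaries, it was 5 and 54 of 96. For PLAG1 it was 110 and 398 of 742 and for HIF1A 723 and 1796 of 3663. The glucocorticoid element, AGAACA and TGTTCT separated by 3 bases, was in 1 such region. Vehicle replicate 3 also had the highest CTCF share of any library, 0.658% of distal peaks. The part of that library in these region counts was not tested.

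Lists with the same estrogen status did not share more sequence than others. The mean base-pair Jaccard index, the shared length over the joint length, was 0.0646 over 30 pairs of the same status and 0.0691 over 36 pairs of different status (one-sided exact permutation p = 0.524). An alternative chosen after seeing the data took q of 0.05 or less in numbers 2 and 3 alone. There pairs of the same status were higher by 0.0417 (one-sided exact permutation p = 0.0286). Over whole lists, vehicle replicate 3 had an index of 0.153 to 0.237 with libraries numbered 1 and of 0.0272 to 0.0991 with all others. Its part in the difference of 0.0417 was not tested.

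In the 669 regions called in every library, peak height could be compared as fold enrichment. With limma on centred log2 values and fulvestrant as a covariate, 0 regions passed after Benjamini-Hochberg adjustment (smallest adjusted p = 0.158), and 52 were higher with estrogen (7.77%) and 13 lower (1.94%) at an unadjusted p of 0.05. The size of this lean depended on the scaling. Without centring the numbers were 30 and 13, and with quantile normalization 30 and 20. Over 1457 regions in 10 or more lists they were 69 and 38, and with −log10 p in place of fold enrichment 65 and 8. In these fits 0 regions passed adjustment. With the replicate number as a block the limma fit called 5 (0.747%), all higher. Of the 669 regions, 77.4% are filled by repeated words.

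The first of these lay in an intron of Lpp, a focal adhesion protein, at chr16:24583263-24583858. Fold enrichment there was 7.55, 9.33 and 8.72 after E2 and 10.2, 13.4 and 8.41 after both agents, against 4.09, 7.21 and 4.96 after vehicle and 4.07, 5.29 and 7.44 after fulvestrant. Every library given estrogen was above every library without it, by 0.83 ± 0.17 (SE) on the centred log2 scale (limma, adjusted p = 0.158, and 0.0265 with the replicate block). Of its words 14.0% are repeated. In an intron of Pde7b, a cyclic AMP phosphodiesterase, at chr10:20459684-20460024, the lowest, median and highest values were 12.5, 16.7 and 18.3 with estrogen and 6.42, 11.7 and 14.7 without it (difference 0.62, limma adjusted p = 0.422, and 0.0265 with the block). Regions near Fam107a and in introns of Cadps, a factor of vesicle release, and Pde1c were also among the 5 higher regions with the smallest p, at 0.66 to 0.72. The block called Lpp and Pde7b and, beside them, regions nearest to Lrrn3, Nedd4l and Fam19a5, at 0.68 to 0.74. Among the 5 lower regions with the smallest p, the promoter of Slc45a1, a sugar transporter, stood at 3.72 to 6.93 with estrogen and 5.22 to 9.54 without it. The others had their nearest start site at Gm8297, Ggh (149844 bp away), Aldoart2 and Gm10354. The estrogen effect did not pass a test of difference between cells with and without fulvestrant in any region (limma interaction, smallest adjusted p = 0.621).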

How the data were processed

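Per the methods of the study and the submitters' processing notes, the authors trimmed reads with Trimmomatic (0.39), aligned them to mm10 with Bowtie2, removed duplicates with Picard (2.21.4) and called peaks with MACS2, library by library. Each deposited list gives a position, a fold enrichment, which is a ratio to the local background made by the authors, deposited −log10 p and −log10 q values, a deposited integer score and the summit offset. The smallest deposited −log10 p-value was 2.01. Read totals are not in the lists, so the background tags per window were solved from fold enrichment and −log10 p as relative depth, and absolute depth is unknown. Absence of a peak does not show closed chromatin. The study filtered out peaks in blacklisted regions of the genome in its own analysis, and no such filter was applied here.

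Groups and replicate numbers came from the labels, 6 libraries against 6. The members, gene lists and tests were chosen with earlier results of these data known. Peaks on chromosomes 1 to 19 and X were merged where they overlapped or touched, and assigned to the nearest GENCODE M21 protein-coding start site. Values per library were compared by exact permutation over 924 labelings, and within replicate number and fulvestrant level over 64. Genes with 12 or more peaks were tested alike, and fold enrichment of regions in all 12 lists with limma 3.58.1 (R 4.3.3), both with Benjamini-Hochberg adjustment. Whether 31-base words recur was counted in the assembly. Named items are the 10 regions in each direction with the largest difference, the 10 genes and 5 limma regions in each direction with the smallest p, and listed genes. Python 3.11.15, scipy 1.17.1 and pysam 0.24.0 were used. Tests were tried on simulated data. With 200 changed regions planted among 669 in independent normal noise, limma found 74% of log2 changes of 0.5 and 96% of changes of 1. So large a changed share makes the adjustment easier to pass, so these shares do not hold where few regions change. At 13028 genes the permutation test called 53% of 2-fold changes unadjusted and 0 adjusted. Alternatives were other peak limits, equal list lengths, the block, strata and leaving out each library. A region and a marker gene are not reported here.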

Additional observations from a re-analysis of the deposited data

Results flagged for a closer look

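Single libraries stood apart from the other 5 of their side in 7 of 72 values tested by Dixon's criterion, which chance alone meets in about 1 in 20 groups. Fulvestrant replicate 1 held the glucocorticoid element in 0.0137% of distal peaks, against at most 0.00454% in the others without estrogen. E2 plus fulvestrant replicate 2 held the HIF1A element in 19.6%, against 20.9% or more in the others given estrogen. In peaks per 10000, vehicle replicate 2 stood at 0.0914 for Tubgcp2, where the others without estrogen were at 0, and at 1.19 for Zfp957, where the next was 0.69. Vehicle replicate 3 was low for Blcap at 0.46, with the next at 0.97. Fulvestrant replicate 3 was high for Afg3l1 at 1.39, with the next at 0.65, and E2 plus fulvestrant replicate 3 was high for Polr3b at 1.23, with the next at 0.85.

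The estrogen difference of Wipi2 was smaller without fulvestrant than with it, by −0.61 peaks per 10000 (exact permutation test, p = 0.03, adjusted over 36 values p = 0.972). Wipi2 was higher with estrogen in both strata, which its complete separation of the sides fixes in advance.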

How the results depend on the processing

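Leaving out each library in turn gave log2 differences in peak number of −0.45 to −0.06, in calling libraries per shared region of −1.11 to −0.38 (−0.65 with all), in promoter share of −4.81 to −1.16 points and in ERE share of 0.00810 to 0.0164 points, with 0 genes and 0 limma regions passing throughout (461 to 598 genes unadjusted). Counts of regions moved more, to 20 to 100 in all, 1 to 30 toward and 3 to 98 away from estrogen, since by construction a side of 5 must be complete to differ by 5. The total was 100 without E2 replicate 1, 87 without E2 plus fulvestrant replicate 1 and 20 without fulvestrant replicate 2. The similarity difference of −0.00448 ran from −0.00969 to 0.00702 and turned to 0.00472 without E2 replicate 1 and 0.00702 without E2 plus fulvestrant replicate 1.

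Total, toward and away counts of 36, 10 and 26 became 11, 1 and 10 with q of 0.05 or less, 107, 22 and 85 in replicate numbers 2 and 3 (difference of 4), and, chosen after seeing the data, 478, 132 and 346 at a difference of 4 or more, 4, 1 and 3 at 6, and 13, 3 and 10 without repeated words. With the top 25000 peaks the total was 17 and those away 9. Exact permutation p ran from 0.0714 to 0.931 over these alternatives. With q of 0.05 or less in numbers 2 and 3, also chosen after seeing the data, 21 were away (exact permutation p = 0.0571). Similarity turned to 0.00346 with q of 0.05 or less, 0.00543 in numbers 2 and 3, and 0.0417 with both, where the peak number differed by −2.01. The p of 0.0286 for that peak number (exact permutation test) was 0.0571 without any 1 of the 4 libraries given estrogen, with differences of −2.15 to −1.94, and 0.0286 without any 1 of the other 4. The causes were not tested.

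Same-numbered libraries on the 2 sides had correlations of deviations from −0.169 to 0.235, others from −0.283 to 0.264, so the numbers are not known to pair them. The replicate block raised the limma count from 0 to 5 and lowered genes at an unadjusted p of 0.05 from 534 to 317, and changed no other call. That gene count was 329 with q of 0.05 or less, 136 with the top 25000 peaks, 211 in numbers 2 and 3, and 142 with plain numbers of peaks. Of 69 alternatives 42 were labeled unchanged, as were 108 of 132 with a library left out. For differences that meant the same direction and side of the threshold, and for counts a value within a set ratio of the main one. Most of the rest were counts that moved by more than that ratio. The exact permutation p of the region counts stayed above 0.05 throughout. The number of libraries and an unknown absolute depth limit what could be detected.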
